A study of Mus musculus with 12 samples.

Results

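The naive pluripotency factors followed here are Nanog, Esrrb, Klf2, Klf4, Klf5, Tfcp2l1, Tbx3, Zfp42, Prdm14 and Dppa3. All but Dppa3, a maternal factor, are transcription factors. All were chosen by name and found as 10 of the 23412 genes in the count tables. Their poly-A RNA was counted by RNA-Seq in mESCs (mouse embryonic stem cells) of the male line v6.5, grown on gelatin in serum with LIF (leukaemia inhibitory factor). There were 4 genotypes with 3 biological replicates each: unedited WT mESCs, the single knockouts Hmgn1-/- and Hmgn2-/-, and the double knockout Hmgn1-/-Hmgn2-/-, all collected for RNA at 48 h. HMGN1 and HMGN2 are small chromatin proteins that bind nucleosomes, and the comparison asks how their loss alters RNA levels. Single knockouts were made with CRISPR-Cas9 as small insertions or deletions in an early exon and were grown from single cells, while the double knockout came from a second edit, of Hmgn1, in Hmgn2-/- cells. Each knockout genotype is therefore 1 cell line, so the genotype and the line cannot be told apart, and the p-values measure only the spread between libraries of a line.

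Naive pluripotency is the state of the epiblast of the early embryo before implantation, and mESCs hold it in culture. Its transcription factors bind one another's enhancers together with Oct4 (Pou5f1) and Sox2. LIF acts through STAT3 on Klf4 and Tfcp2l1, inhibition of GSK3 relieves repression of Esrrb by TCF7L1, and FGF and ERK signalling opposes the network and moves cells towards the formative and primed states. In serum with LIF, levels of Nanog, Dppa3, Tbx3, Prdm14 and the Klf factors are known to differ from cell to cell, whereas bulk RNA reports the average, in which fewer cells of a type and less RNA per cell cannot be told apart.

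The libraries held 17614490 to 31448468 counts in WT mESCs, 21059862 to 25953244 in Hmgn1-/- cells, 17337908 to 26486535 in Hmgn2-/- cells and 22151507 to 31005479 in the double knockout. Levels are given as CPM, the common unit of counts scaled to library size, here also with TMM scaling in edgeR, without correction for gene length unless stated. Replicates of a genotype differed by more than counting noise, with a variance per gene of 3.402 to 36.4 times that of counting alone, and Hmgn2-/- replicate 3 stood furthest from the replicates of its line. Calls of the 10 factors that it changes are given with and without it, and the other gene lists were not fitted without it. On the first principal component (50.7% of variance) WT libraries lay at -53.8 to -44.4 and knockout libraries at 14.02 to 19.6. The targeted genes followed the labels. Hmgn1 had 661, 594 and 612 CPM in WT replicates 1 to 3 and 138, 139 and 142 CPM in Hmgn1-/- replicates. In Hmgn2-/- mESCs Hmgn1 had 546, 556 and 639.7 CPM, and in the double knockout 21.6, 19.9 and 21.5 CPM. Hmgn1 RNA was thus far below WT in both lines edited in Hmgn1, and lower in the double than in the single knockout (log2 fold change -2.73 ± 0.06 SE, adjusted p = 7.83e-13). Hmgn2 had 137, 121 and 119 CPM in WT replicates, 106, 113 and 109 CPM in Hmgn1-/- replicates, 50.9, 54.5 and 53.7 CPM in Hmgn2-/- replicates and 53.9, 50.5 and 54.5 CPM in the double knockout. Hmgn2 RNA was lower in both lines edited in Hmgn2 but was still counted. A small insertion or deletion need not remove the RNA, and counts over a whole gene say nothing of the protein.

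RefSeq start sites give the sequence around the promoters, and 6 of the 10 genes have entries in the table used: Nanog, Esrrb, Klf2, Klf4, Tfcp2l1 and Zfp42. The promoters of Klf5, Tbx3, Prdm14 and Dppa3 were not analysed here. Those of Nanog, Klf2, Klf4 and Esrrb are shown because their RNA differed between genotypes, and that of Zfp42 because it had the highest level of the 10 genes in WT mESCs and was not called in any comparison. Each runs from 250 bases before to 50 bases after the annotated start in GRCm38.p6, the build also called mm10, and is written 5′ to 3′ on the strand of the gene. Capitals mark TTTGCAT (the core of the octamer bound by Oct4), ACAATG (a SOX core), GGGCGG (a GC box), CACCC (a box of the kind KLF proteins bind) and AAGGTCA (an ESRRB half-site), each on either strand. Overlapping matches are run together.
Nanog (chr6:122707239-122707538, plus strand): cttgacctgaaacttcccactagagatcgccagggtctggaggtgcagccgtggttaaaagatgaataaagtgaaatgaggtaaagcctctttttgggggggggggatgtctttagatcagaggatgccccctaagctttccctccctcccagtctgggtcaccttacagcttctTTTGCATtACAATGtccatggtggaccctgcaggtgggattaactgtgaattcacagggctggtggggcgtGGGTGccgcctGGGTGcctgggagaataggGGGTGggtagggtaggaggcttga
Klf2 (chr8:72318812-72319111, plus strand): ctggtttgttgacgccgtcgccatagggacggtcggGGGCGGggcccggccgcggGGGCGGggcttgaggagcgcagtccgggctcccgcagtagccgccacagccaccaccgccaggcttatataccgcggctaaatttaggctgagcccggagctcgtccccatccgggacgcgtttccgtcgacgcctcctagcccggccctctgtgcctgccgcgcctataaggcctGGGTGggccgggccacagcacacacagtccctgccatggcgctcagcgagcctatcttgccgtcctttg
Klf4 (chr4:55532426-55532725, minus strand): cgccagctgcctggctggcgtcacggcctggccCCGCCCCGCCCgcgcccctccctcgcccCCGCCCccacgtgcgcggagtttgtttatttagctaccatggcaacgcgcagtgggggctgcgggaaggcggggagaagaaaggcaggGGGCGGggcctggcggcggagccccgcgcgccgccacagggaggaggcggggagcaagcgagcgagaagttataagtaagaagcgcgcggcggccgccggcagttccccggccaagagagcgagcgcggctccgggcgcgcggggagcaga
Esrrb (chr12:86360867-86361166, plus strand): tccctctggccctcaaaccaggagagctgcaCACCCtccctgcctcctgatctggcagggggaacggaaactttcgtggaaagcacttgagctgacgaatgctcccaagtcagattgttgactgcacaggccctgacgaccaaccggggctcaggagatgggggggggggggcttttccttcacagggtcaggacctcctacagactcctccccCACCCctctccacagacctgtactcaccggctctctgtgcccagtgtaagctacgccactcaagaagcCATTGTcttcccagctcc
Zfp42 (chr8:43306960-43307259, minus strand): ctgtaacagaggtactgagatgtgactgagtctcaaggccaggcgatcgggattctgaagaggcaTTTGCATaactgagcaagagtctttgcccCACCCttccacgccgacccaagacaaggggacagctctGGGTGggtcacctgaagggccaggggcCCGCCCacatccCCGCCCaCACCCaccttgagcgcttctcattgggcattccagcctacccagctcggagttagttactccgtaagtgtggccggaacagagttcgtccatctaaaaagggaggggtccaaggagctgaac

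None of these motifs was in the windows of both Nanog and Klf2, which were lower in knockouts, and in neither of those of Klf4 and Esrrb, which were higher. The Nanog window holds an octamer core at position -75 from the start and a SOX core at -67, a single base apart. This joint arrangement occurred in 2 of 32851 promoter windows, both of them entries of Nanog that overlap. The octamer core alone was in 4.63% of the windows and the SOX core in 12.6%. Zfp42 also has an octamer core, at -185, with no SOX core in its window. The Klf4 window has 4 GC boxes and the Klf2 window has 2, and these windows were the richest in G and C of the 5. Zfp42, not called in any comparison, also has 2 GC boxes, with 3 CACCC boxes. The shares of G and C were 74.3% for Klf4, 69.3% for Klf2 and 57.7% for Zfp42, and the median window had 52.7%. GC boxes were in 35.7% of all windows and CACCC in 57.5%. The Esrrb window, one of 2 annotated starts of the gene, has a SOX core at 32 and 2 CACCC boxes. It also has a STAT palindrome (TTCNNNGAA, not marked above) at -178, which was in 8.30% of all windows. None of the 5 windows has AAGGTCA, which was in 4.72% of all windows. A match to such letters is a description of the sequence and not a binding site.

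Per length of merged exons, Zfp42 (also called Rex1, a zinc finger protein used as a reporter of the naive state) had the highest level in WT mESCs, 245 ± 10.2 RPKM (SD, n = 3; RPKM is TMM-scaled CPM divided by kilobases of exon). Klf2 followed with 155 ± 1.86 RPKM and Nanog with 114 ± 8.41 RPKM. Esrrb had 65.98 ± 3.12 RPKM, Klf4 41.04 ± 4.53 RPKM, Klf5 29.2 ± 3.61 RPKM and Dppa3 22.5 ± 3.26 RPKM. Tfcp2l1 had 15.9 ± 0.312 RPKM, Tbx3 9.34 ± 0.549 RPKM and Prdm14 5.89 ± 0.579 RPKM. Klf5 and Dppa3 were separated by less than the sum of their SDs, and the 3 WT libraries of every other pair of neighbours in this order did not overlap. Over the longest transcript in place of merged exons, Klf5 stood above Klf4, at 45.3 against 41.3 RPKM. The genes lie on 7 chromosomes, and only Nanog and Dppa3 are near one another.

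All 10 genes passed the filter on low counts in every comparison, with 203 counts for Prdm14 in the shallowest case and 15074 for Esrrb in the deepest. Nanog, Klf2 and Dppa3 were lower and Klf4, Klf5 and Esrrb higher than in WT mESCs in at least 1 knockout line, all by less than 2-fold. None of the 10 genes passed the limits of the study's methods, an adjusted p under 0.01 and a log2 fold change of at least 1 in size, in any of the 7 comparisons (edgeR, quasi-likelihood test, p adjusted by Benjamini-Hochberg over all genes tested). DESeq2's Wald test also gave 0 of 10 in each. At an unadjusted p under 0.05 there were 7 genes in Hmgn1-/- cells, 6 in Hmgn2-/- cells and 7 in the double knockout against WT, where 38.7%, 31.02% and 38.9% of all genes tested had such a p. At the limits of the study's methods, 5.98%, 5.15% and 6.30% of all genes passed in Hmgn1-/-, Hmgn2-/- and double knockout mESCs.

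**Figure D1:**
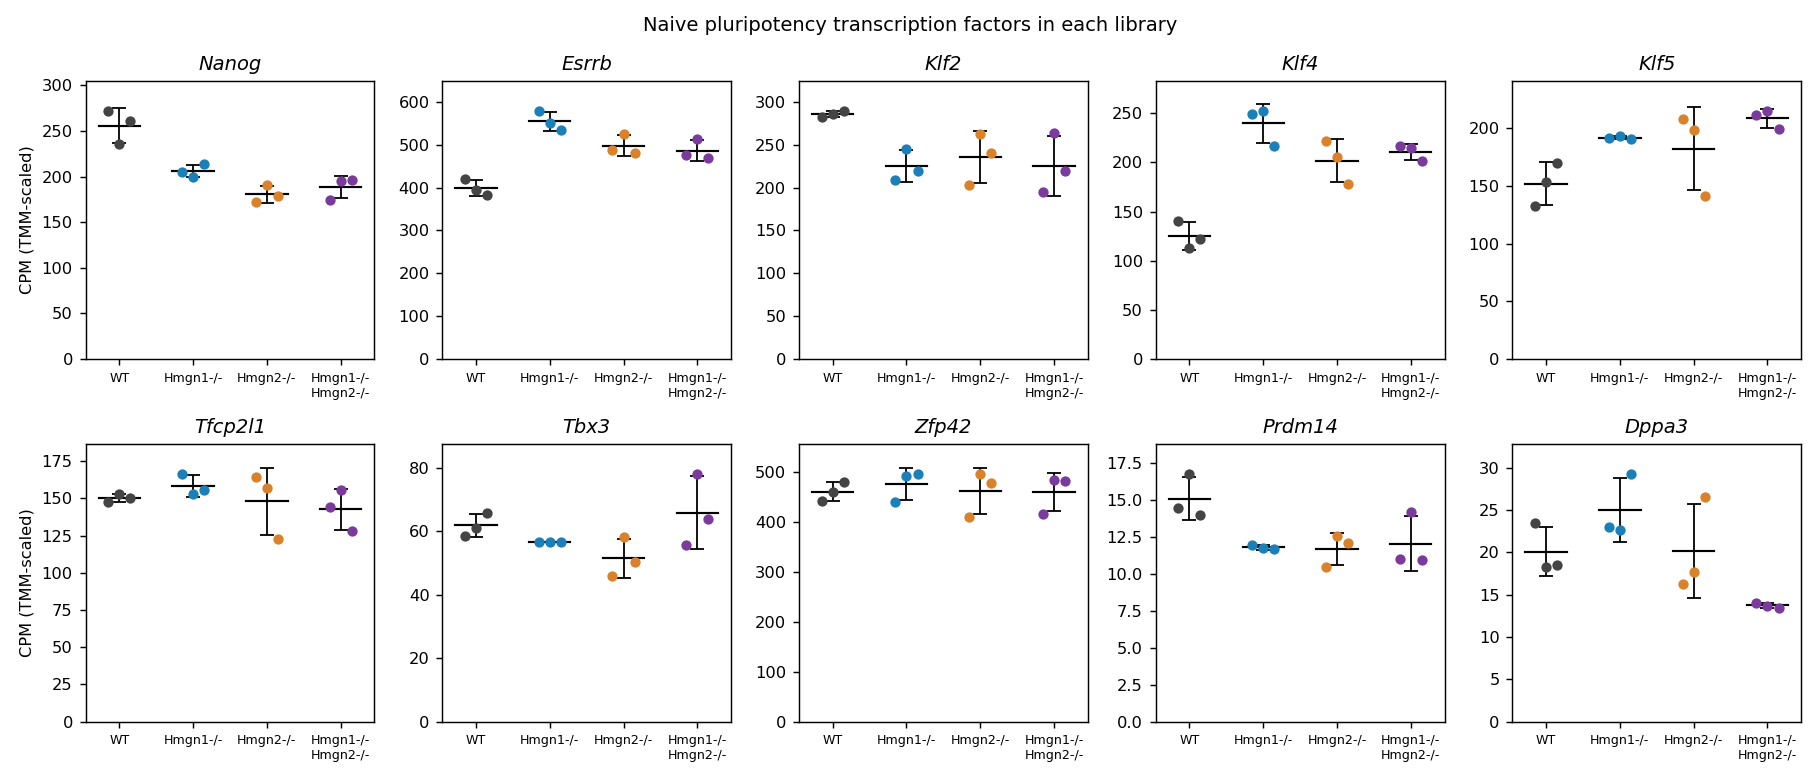
Level of each of the 10 naive factors in CPM (TMM-scaled, vertical axis from 0) in every library, by genotype. Dots are the 3 libraries, horizontal lines the mean and error bars the SD. The 3 WT dots lie above all 9 knockout dots for Nanog and Klf2 and below all 9 for Klf4 and Esrrb. The share of all genes that part WT from the knockouts in this way was not counted.

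A gene was called where its adjusted p was under 0.01 at any size of change, and 5 of 10 genes were called in Hmgn1-/- mESCs, where 17.3% of all genes tested were called. Esrrb, Klf4 and Klf5 rose (3 of 10, against 7.28% of all genes up) and Nanog and Klf2 fell (2 of 10, against 10.1% down). Without Hmgn1-/- replicate 2 the count was 3, Esrrb, Klf2 and Klf4, against 11.2% of all genes. With all 12 libraries in 1 fit it was also 3, Nanog, Esrrb and Klf4, against 15.03%, so that Klf2 and Klf5 lost the call. In Hmgn2-/- mESCs 2 of 10 were called, against 9.97% of all genes: Klf4 rose (3.30% of all genes up) and Nanog fell (6.66% down). Without Hmgn2-/- replicate 3 the count there was 4, with Esrrb and Klf5 in addition, against 13.5% of all genes. Without WT replicate 3 it was 1, against 5.17%. In the double knockout 6 of 10 were called, against 18.0% of all genes. Esrrb, Klf4 and Klf5 rose (3 of 10, 7.79% of all genes up) and Nanog, Klf2 and Dppa3 fell (3 of 10, 10.2% down). With all 12 libraries in 1 fit Klf2 and Dppa3 lost the call there (15.7% of all genes called) and Esrrb gained it in Hmgn2-/- mESCs (15.5%). Among genes at least as abundant as Prdm14, the least abundant of the 10, 16.6%, 8.003% and 17.5% were called in the same order of lines. The median log2 fold change of the 10 genes was 0.06, -0.01 and -0.04, beside 0.00, 0.01 and 0.00 over all genes tested. The median size of change was 0.32, 0.27 and 0.34 for the 10 genes and 0.18, 0.18 and 0.18 for all genes. The changes of the factors thus went both ways and left their median near 0. The 3 comparisons share the WT libraries and are not independent of one another.

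**Figure D2:**
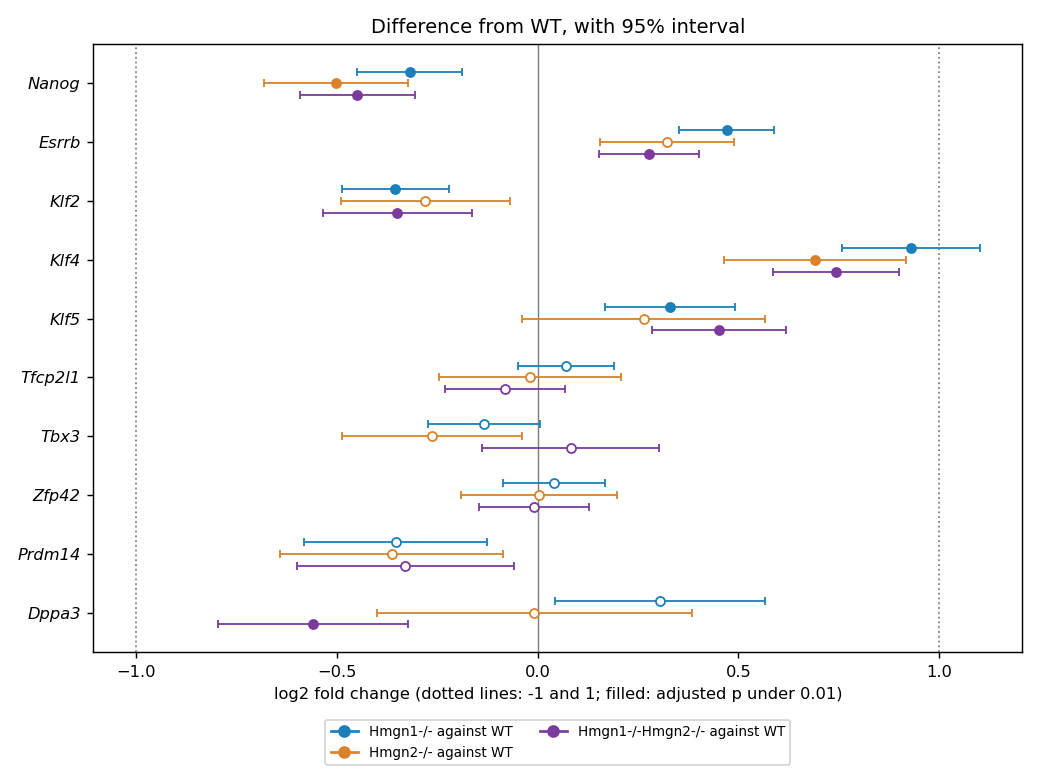
Log2 fold change against WT (horizontal axis) of the 10 factors in Hmgn1-/-, Hmgn2-/- and Hmgn1-/-Hmgn2-/- mESCs, with 95% intervals. Filled circles have an adjusted p under 0.01 and dotted lines mark -1 and 1. No estimate passes the dotted lines, and Klf4 comes nearest.

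Nanog (chr6:122707489-122714633, plus strand in GRCm38), the homeodomain factor that lets mESCs self-renew with less LIF, fell in every knockout line. It had 272, 235 and 260.4 CPM in WT replicates, 205, 200.005 and 214 CPM in Hmgn1-/- replicates, 173, 191 and 179 CPM in Hmgn2-/- replicates and 174, 195 and 196 CPM in the double knockout. Every WT library was above every knockout library, and both lines without intact Hmgn2 were below the Hmgn1-/- libraries. The log2 fold change against WT was -0.32 ± 0.06 (SE, adjusted p = 0.001401) in Hmgn1-/- cells, -0.50 ± 0.08 (SE, adjusted p = 0.00152) in Hmgn2-/- cells and -0.45 ± 0.07 (SE, adjusted p = 0.000195) in the double knockout, so that Nanog stood at 80.6%, 70.6% and 73.6% of its WT mean. Without Hmgn1-/- replicate 2 the adjusted p in that line was 0.0112, and without WT replicate 3 that in Hmgn2-/- mESCs was 0.0117, both just past 0.01 at log2 fold changes of -0.30 and -0.49. Pseudogene copies named after Nanog, Zfp42 and Dppa3 are annotated in this genome but are not in the count tables, and reads they share with these genes cannot be told apart.

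Klf2, Klf4 and Klf5 are Kruppel-like zinc finger factors that bind related CACCC and GC-rich sites and can stand in for one another in mESCs. Klf2 (chr8:72319062-72321654, plus strand) had 283, 286 and 289.5 CPM in WT replicates, 209, 245 and 219 CPM in Hmgn1-/- replicates, 203, 263 and 240.4 CPM in Hmgn2-/- replicates and 194, 263 and 219 CPM in the double knockout. The WT libraries were close together and above every knockout library, whereas the knockout libraries of a genotype were spread more widely. Klf2 fell in Hmgn1-/- mESCs (log2 fold change -0.35 ± 0.06 SE, adjusted p = 0.000718) and in the double knockout (-0.35 ± 0.09 SE, adjusted p = 0.00784). Both calls were lost with all 12 libraries in 1 fit. In Hmgn2-/- mESCs its log2 fold change of -0.28 ± 0.10 (SE, adjusted p = 0.0656) did not pass. The call in the double knockout was lost when WT replicate 2 or 3 or double knockout replicate 1 or 3 was left out, with adjusted p-values of 0.0217, 0.0246, 0.0311 and 0.0368, and log2 fold changes between -0.35 and -0.25.

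Klf4 (chr4:55527137-55532475, minus strand) moved the other way and changed most of the 10 genes. It had 140.1, 113 and 122 CPM in WT replicates, 249.5, 252 and 217 CPM in Hmgn1-/- replicates, 222, 205 and 178 CPM in Hmgn2-/- replicates and 216, 214 and 201 CPM in the double knockout. All 9 knockout libraries were above all 3 WT libraries. The log2 fold change was 0.93 ± 0.08 (SE, adjusted p = 1.94e-06) in Hmgn1-/- cells with a 95% interval of 0.76 to 1.10, 0.69 ± 0.10 (SE, adjusted p = 0.000899) in Hmgn2-/- cells and 0.74 ± 0.07 (SE, adjusted p = 5.70e-06) in the double knockout. Klf4 was at 191%, 161% and 168% of its WT mean. WT replicate 1 had the highest Klf4 of the WT libraries, and without it the log2 fold change in Hmgn1-/- mESCs was 1.01, past the limit of 1. The 3 calls were kept with each library left out in turn.

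Klf5 (chr14:99298691-99313412, plus strand) had 133, 153 and 170.0 CPM in WT replicates, 191, 193 and 191 CPM in Hmgn1-/- replicates, 208, 198 and 141 CPM in Hmgn2-/- replicates and 212, 215 and 199 CPM in the double knockout. It rose in Hmgn1-/- mESCs (log2 fold change 0.33 ± 0.08 SE, adjusted p = 0.00455) and in the double knockout (0.45 ± 0.08 SE, adjusted p = 0.000636), where all 3 libraries were above WT. In Hmgn2-/- mESCs replicate 3 lay within the WT range and the other 2 above it, and the log2 fold change of 0.26 ± 0.14 (SE, adjusted p = 0.223) did not pass. Without Hmgn2-/- replicate 3 it was 0.42 (adjusted p = 0.004998), without Hmgn2-/- replicate 1 0.16 (adjusted p = 0.476) and without WT replicate 1 0.17 (adjusted p = 0.521). The call in Hmgn1-/- mESCs was lost without WT replicate 2 or any 1 of the Hmgn1-/- replicates, at adjusted p-values of 0.0143 to 0.0221. The log2 fold changes in those fits were 0.32 to 0.34. With all 12 libraries in 1 fit the call in Hmgn1-/- mESCs was lost too.

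Esrrb (chr12:86361117-86521628, plus strand), an orphan nuclear receptor that is a target of Nanog and can sustain self-renewal in its place, had 419.8, 394 and 383 CPM in WT replicates, 579, 551 and 535 CPM in Hmgn1-/- replicates, 488, 526 and 481 CPM in Hmgn2-/- replicates and 475, 514 and 468 CPM in the double knockout. All knockout libraries exceeded all WT libraries, and the Hmgn1-/- libraries exceeded those of both other lines. Esrrb rose in Hmgn1-/- mESCs (log2 fold change 0.47 ± 0.06 SE, adjusted p = 2.81e-05) and in the double knockout (0.28 ± 0.06 SE, adjusted p = 0.00251). In Hmgn2-/- mESCs the log2 fold change of 0.32 ± 0.08 (SE, adjusted p = 0.0124) missed the limit, while DESeq2's Wald test gave an adjusted p of 0.00126, a fit with all genes of 1 count or more gave 0.00834 and leaving out Hmgn2-/- replicate 3 gave 0.00216. The call in the double knockout was lost without WT replicate 2 or 3 or double knockout replicate 2, at adjusted p-values of 0.0114, 0.0244 and 0.023997. The log2 fold changes in those fits were 0.27, 0.24 and 0.23.

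Dppa3 (chr6:122626424-122630271, plus strand), also called Stella, a maternal factor that protects methylated DNA in the early embryo and is patchy in serum cultures, was called against WT only in the double knockout. It had 23.4, 18.2 and 18.6 CPM in WT replicates, 23.02, 22.7 and 29.3 CPM in Hmgn1-/- replicates, 16.3, 17.7 and 26.5 CPM in Hmgn2-/- replicates and 14.1, 13.7 and 13.4 CPM in the double knockout. The double knockout libraries were close together and below the other 9 libraries, while both single knockouts overlapped WT. The log2 fold change in the double knockout was -0.56 ± 0.11 (SE, adjusted p = 0.00173), beside 0.30 ± 0.12 (SE, adjusted p = 0.0787) in Hmgn1-/- mESCs and -0.01 ± 0.18 (SE, adjusted p = 0.984) in Hmgn2-/- mESCs. The value in Hmgn2-/- mESCs was -0.25 (adjusted p = 0.183) without replicate 3 of that line and 0.12 (adjusted p = 0.678) without replicate 1. Without double knockout replicate 3 the adjusted p in the double knockout was 0.0107, at a log2 fold change of -0.54. With all 12 libraries in 1 fit the call in the double knockout was lost too. Without WT replicate 1, the highest WT library, the log2 fold change in Hmgn1-/- mESCs was 0.43 (adjusted p = 0.00492), and without Hmgn1-/- replicate 3, the highest of its line, 0.17 (adjusted p = 0.334).

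The other 4 genes were not called against WT. Zfp42 (chr8:43295067-43307009, minus strand) had 410.1 to 497 CPM over all 12 libraries, and the 95% interval of its log2 fold change was -0.09 to 0.17 in Hmgn1-/- cells, -0.19 to 0.20 in Hmgn2-/- cells and -0.15 to 0.13 in the double knockout. Tfcp2l1 (chr1:118627923-118685168, plus strand), a grainyhead-family factor downstream of LIF and STAT3, had 150.2 ± 2.94 CPM in WT mESCs (SD, n = 3) and 158, 148 and 143 CPM in Hmgn1-/-, Hmgn2-/- and double knockout mESCs. Its intervals were -0.05 to 0.19, -0.25 to 0.21 and -0.23 to 0.07. For these 2 genes, changes of more than 0.25 in log2 thus lay outside the intervals.

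Tbx3 (chr5:119670534-119684724, plus strand), a T-box repressor linked to primitive endoderm priming as well as self-renewal, had 58.6, 61.2 and 65.8 CPM in WT replicates, 56.7, 56.6 and 56.6 CPM in Hmgn1-/- replicates, 45.9, 58.1 and 50.5 CPM in Hmgn2-/- replicates and 55.7, 78.2 and 63.7 CPM in the double knockout. Both single knockouts lay below WT and the double knockout overlapped it, with log2 fold changes of -0.13 ± 0.07 (SE, adjusted p = 0.1502), -0.26 ± 0.10 (SE, adjusted p = 0.10004) and 0.08 ± 0.10 (SE, adjusted p = 0.597). Exons of Tbx3 share 115 bases with an antisense transcript, Tbx3os1, and those of Tfcp2l1 share 130 bases with a small nuclear RNA. Neither of these transcripts is in the count tables. Whether counting used the strand is not given in the sources used here. Prdm14 (chr1:13113428-13127163, minus strand), a PR-domain factor that represses Fgfr signalling and DNA methyltransferases, was the least abundant of the 10, with 15.1 ± 1.48 CPM in WT mESCs and 11.8, 11.7 and 12.1 CPM in Hmgn1-/-, Hmgn2-/- and double knockout mESCs. Its log2 fold changes of -0.35, -0.36 and -0.33 were as large as those of Klf2 but carried SEs of 0.11, 0.13 and 0.13 and adjusted p-values of 0.0231, 0.0694 and 0.0649.

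Because Klf2 and Klf4 moved in opposite directions, their ratio within a library, which needs no scaling between libraries, set the WT libraries apart. The log2 ratio of Klf4 to Klf2 counts was -1.20 ± 0.17 in WT mESCs (SD, n = 3), 0.09 ± 0.14 in Hmgn1-/- cells, -0.22 ± 0.30 in Hmgn2-/- cells and -0.09 ± 0.23 in the double knockout. The highest WT library, at -1.01, was below the lowest knockout library, at -0.43. Klf2 held 50.8% ± 0.996 of the summed counts of the 3 Klf genes in WT mESCs and 34.2% ± 1.78, 38.2% ± 5.55 and 34.9% ± 3.42 in Hmgn1-/-, Hmgn2-/- and double knockout mESCs. Klf4 went from 22.2% ± 2.61 in WT to 36.5% ± 1.92, 32.6% ± 2.21 and 32.7% ± 1.91. The log2 ratio of Esrrb to Nanog was 0.64 ± 0.10 in WT mESCs and 1.43 ± 0.09, 1.46 ± 0.04 and 1.37 ± 0.10 in the knockouts. These pairs were chosen after their values were seen and are given without a test, and the ratios are of counts, not of levels per length.

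**Figure D3:**
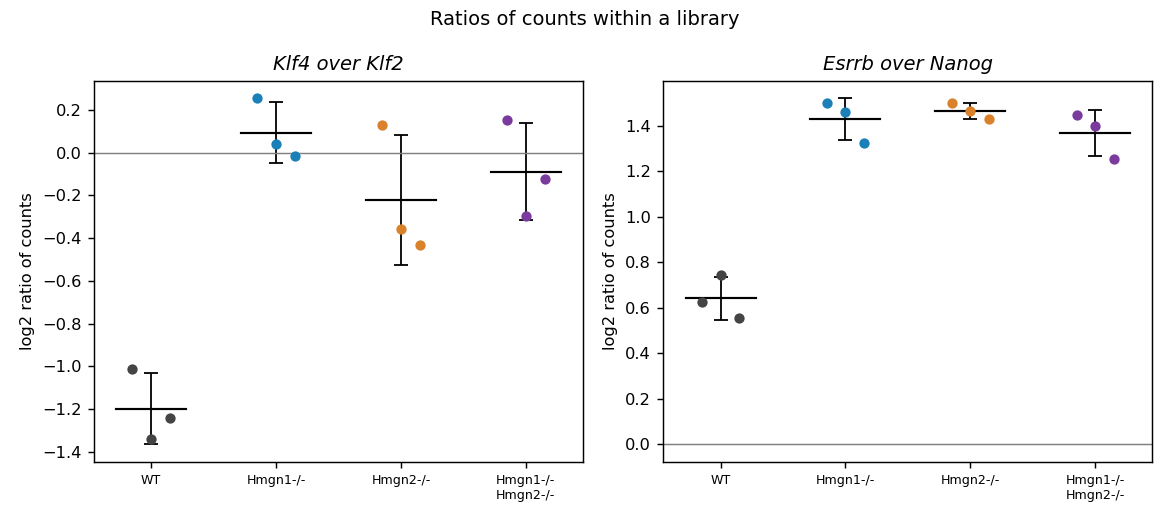
Log2 ratio of counts within each library (vertical axes) for Klf4 over Klf2 and Esrrb over Nanog, by genotype. Dots are the 3 libraries, horizontal lines the mean and error bars the SD. All 3 WT dots lie below all 9 knockout dots in both panels.

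The core factors of pluripotency, which act in naive and primed cells alike, were called in 1 line at most. Of 5 core genes (Pou5f1, Sox2, Sall4, Zfp281 and Utf1), none passed the threshold of the study, the limits on p and size together, with edgeR or DESeq2 in any line. At any size 1 was called in Hmgn1-/- mESCs, a rise, and 0 in the other lines with either tool. Of all genes tested, 17.3%, 9.97% and 18.0% were called in Hmgn1-/-, Hmgn2-/- and double knockout mESCs. In each of the latter 2 lines 2 core genes had an unadjusted p under 0.05, beside 31.02% and 38.9% of all genes. Pou5f1, which encodes Oct4, had 1966 ± 82.5 CPM in WT mESCs (SD, n = 3) and 1871 ± 135, 1883 ± 262 and 1839 ± 142 CPM in Hmgn1-/-, Hmgn2-/- and double knockout mESCs. The called gene was Utf1, a chromatin-bound factor of mESCs and the other of the 2 most abundant, with a log2 fold change of 0.29 ± 0.06 (SE, adjusted p = 0.00359) in Hmgn1-/- mESCs and of 0.27 ± 0.08 (SE, adjusted p = 0.0427) and 0.21 ± 0.06 (SE, adjusted p = 0.0186) in Hmgn2-/- and double knockout mESCs. The list had median log2 fold changes of 0.05, -0.06 and -0.07. High Pou5f1, Sox2, Sall4, Utf1, Nanog and Zfp42 in all 12 libraries is what the label of embryonic stem cells calls for.

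Of 15 other genes associated with naive mESCs, none passed the threshold with edgeR or DESeq2 in any line, and 8, 5 and 11 had an unadjusted p under 0.05 in Hmgn1-/-, Hmgn2-/- and double knockout mESCs, beside 38.7%, 31.02% and 38.9% of all genes. At any size there were 4 up and 2 down in Hmgn1-/- cells, 1 up and 2 down in Hmgn2-/- cells and 3 up and 3 down in the double knockout, with medians of 0.03, -0.09 and -0.01. Over all genes 17.3%, 9.97% and 18.0% were called. The 2 most abundant in WT, Dppa5a (1456 ± 36.5 CPM) and the MYB-family gene Mybl2 (886 ± 36.8 CPM), were not called. Named after their values were seen, Gbx2, a homeobox target of LIF and STAT3, had log2 fold changes of 0.91, 0.86 and 0.97, and Tcl1, a cofactor of AKT, had -0.59, -0.74 and -0.83, each with an adjusted p under 0.01 in all 3 lines. Rises and falls thus occurred side by side here as among the 10 factors.

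Genes of the pathways that feed the network were examined in the same way, and none of them passed the threshold with edgeR or DESeq2. Stat3, of the LIF list, and Fgf4, of the FGF and ERK list, are also among the other naive genes, so these lists are not separate. Their counts at any size stand beside 17.3%, 9.97% and 18.0% of all genes called in Hmgn1-/-, Hmgn2-/- and double knockout mESCs. Of 8 genes of the LIF, JAK and STAT3 pathway, 3 up and 1 down in Hmgn1-/- cells, 0 up and 0 down in Hmgn2-/- cells and 3 up and 0 down in the double knockout were called at any size. In Hmgn2-/- mESCs 3 of the 8 had an unadjusted p under 0.05, beside 31.02% of all genes, and DESeq2 called 1. The kinase genes Pim3 and Pim1 were the most abundant, with 268 ± 8.01 and 173 ± 4.14 CPM in WT mESCs, and Pim3 rose in Hmgn1-/- mESCs (0.24) and in the double knockout (0.20). Of 8 genes of WNT signalling and TCF7L1, 0, 0 and 2 were called in the same order of lines by edgeR, in the double knockout Tcf7l1 (-0.35) and Axin2 (0.43). At an unadjusted p under 0.05 there were 3, 2 and 3, beside 38.7%, 31.02% and 38.9% of all genes, and DESeq2 called 1, 0 and 2. The most abundant were Ctnnb1, which encodes beta-catenin, with 785 ± 11.8 CPM, and the kinase gene Gsk3a with 70.2 ± 2.96 CPM in WT mESCs. Of 9 genes of FGF and ERK signalling, 3 up and 1 down, 1 up and 1 down and 4 up and 1 down were called, with 8, 5 and 7 at an unadjusted p under 0.05, beside the same shares of all genes. The ligand gene Fgf4 (319 ± 24.2 CPM) and the ETS factor gene Etv5 (249.8 ± 9.904 CPM) were the most abundant of them in WT. In the knockouts it was the ETS factor gene Etv4, with 346, 351 and 362 CPM in the same order of lines, beside 233 CPM in WT. Fgf4 was not called, and Etv5 rose in Hmgn1-/- mESCs (0.27).

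Of 15 genes of the formative and primed states that follow the naive state, 2 were called up and 9 down at any size in Hmgn1-/- cells, 2 up and 8 down in Hmgn2-/- cells and 2 up and 10 down in the double knockout, with medians of -0.77, -0.90 and -0.81. Over all genes tested the shares called were 7.28% up and 10.1% down, 3.30% up and 6.66% down, and 7.79% up and 10.2% down in the same order of lines. Past the threshold in all 3 lines were falls of Pou3f1, a POU factor of the primed epiblast (-1.34, -1.51 and -1.46), of Fgf5, the usual marker of that state (-4.40, -3.69 and -4.13), of T, which encodes brachyury (-3.71, -2.89 and -3.37), and of the keratin gene Krt18 (-2.80, -2.19 and -2.60). Fgf8 fell past it in Hmgn1-/- mESCs (-2.67) and in the double knockout (-2.33), and Zic2 in the double knockout (-1.14). Tcf15, a bHLH gene, rose past it in Hmgn2-/- mESCs (1.10) and in the double knockout (1.17). Fgf5 had 4.68 CPM in WT mESCs and 0.212, 0.332 and 0.258 CPM in Hmgn1-/-, Hmgn2-/- and double knockout mESCs. T had 3.70 CPM in WT mESCs and 0.274, 0.49 and 0.355 CPM in these lines, and Fgf8 2.10 against 0.345, 0.629 and 0.429 CPM. Between knockouts only 12 to 14 of the 15 were tested. Some thus passed the filter on low counts through WT and could hardly be called but as falls. The DNA methyltransferase genes Dnmt3b and Dnmt3a were the most abundant in WT, with 533 ± 29.8 and 298 ± 25.8 CPM, and Dnmt3a rose by 0.70, 0.83 and 0.92 in log2.

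Markers of cells outside the epiblast passed the threshold of the study, which none of the naive factors did. Of 15 primitive endoderm genes, 13 were tested, and past the threshold 8 rose in Hmgn1-/- cells, 9 in Hmgn2-/- cells and 13 in the double knockout, with no fall. Over all genes tested 5.98%, 5.15% and 6.30% passed it in the same order of lines. The summed level of all 15 was 219 ± 33.5 CPM in WT mESCs (SD, n = 3), 502 ± 59.6 in Hmgn1-/- cells, 568 ± 122 in Hmgn2-/- cells and 1226 ± 60.3 CPM in the double knockout, led in each library by Lama1 or Col4a1, which encode proteins of the basement membrane. Of the genes that passed, Lama1, Dab2, Cubn, Gata4, Amn, Gata6, Pdgfra and Sox17 did so in all 3 lines, Col4a1 in Hmgn2-/- and double knockout mESCs, and Col4a2, Sox7, Foxa2 and Hnf4a in the double knockout alone. Gata6, a factor that Nanog opposes in the early embryo, had 1.66 CPM in WT mESCs and 8.82, 11.3 and 25.2 CPM in the knockouts. Afp and Ttr, markers of mature visceral endoderm, had a mean of at most 0.0385 CPM in any genotype. The part of such cells in the lower Nanog was not tested.

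Of 11 trophoblast genes, 10 were tested and 6 fell past the threshold in each line: Krt8, Krt18, Krt7, Ascl2, Hand1 and Gata3. Among all genes tested, 5.98%, 5.15% and 6.30% passed it in Hmgn1-/-, Hmgn2-/- and double knockout mESCs. Krt18 is also among the formative and primed genes, and Tfap2c among the germ cell genes. The summed level of all 11 was 457 ± 105 CPM in WT mESCs and 119.8 ± 19.3, 159 ± 23.7 and 139.6 ± 14.6 CPM in Hmgn1-/-, Hmgn2-/- and double knockout mESCs, with Krt8 the most abundant in WT libraries. Cdx2 and Elf5, which define trophoblast stem cells, had 1.07 and 0.169 CPM in WT mESCs. Cdx2, Tfap2c and Tead4 were not called, with log2 fold changes of -0.52, 0.03 and 0.01 for Cdx2, 0.02, 0.12 and -0.23 for Tfap2c, and -0.14, -0.06 and 0.02 for Tead4. Of 11 genes of 2-cell-like cells in the tables, 7, 8 and 8 were tested and 7, 8 and 7 fell past the threshold, beside the same shares of all genes. Between Hmgn2-/- and Hmgn1-/- mESCs only 3 were tested. The rest thus passed the filter on low counts against these lines through WT, where they are high. Such genes could hardly be called but as falls, so these counts are not comparable with the shares of all genes. The 11 genes summed to 24.8 ± 4.97 CPM in WT mESCs, 1.696 ± 0.673 in Hmgn1-/- cells, 1.704 ± 0.381 in Hmgn2-/- cells and 7.58 ± 1.48 in the double knockout. Those that fell were Zscan4c, Zscan4d, Zscan4f, Usp17la, Usp17lc, Tcstv1 and Tcstv3, with Zfp352 in Hmgn2-/- mESCs. They belong to families of near-identical copies whose counts are uncertain, Gm4340 was at 0 in the means of all genotypes, and Dub1 is not in the tables.

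Of 8 germ cell genes, which some naive factors also serve (Prdm14 and Dppa3 act in primordial germ cells), Prdm1 fell past the threshold in all 3 lines (-2.08, -1.87 and -2.21), Mael in both single knockouts (-1.54 and -1.19) and Dazl in Hmgn2-/- mESCs (-1.10), with none rising past it. For this list and the next, 5.98%, 5.15% and 6.30% of all genes passed it in Hmgn1-/-, Hmgn2-/- and double knockout mESCs. Tfap2c and Ddx4 were the most abundant in WT mESCs, with 31.96 ± 0.918 and 27.98 ± 3.12 CPM, and Ddx4 rose by 0.52, 0.80 and 0.90 in log2. The germ cell genes summed to 135 ± 3.73 CPM in WT mESCs and 145 ± 4.93, 152 ± 3.995 and 150.2 ± 6.84 CPM in the knockouts. Of 10 fibroblast genes, 4, 4 and 5 were tested in Hmgn1-/-, Hmgn2-/- and double knockout mESCs, and the rest were too low. Between Hmgn2-/- and Hmgn1-/- mESCs 3 were tested. A gene that passed the filter on low counts through WT alone could hardly be called but as a fall. The collagen genes Col1a1 and Col1a2 and the surface marker gene Thy1 fell past the threshold in all 3 lines and Twist2 in the double knockout, with Thy1 and Twist1 the most abundant in WT mESCs (11.4 and 6.24 CPM). Their sum was 25.7 ± 2.85 CPM in WT mESCs and at most 12.5 CPM in any knockout library, and Lum was at 0 in the means of all genotypes. The summed RNA of the trophoblast list, most of it from Krt8 and Krt18 in WT mESCs, and of the 2-cell-like and fibroblast lists was thus higher, and that of the primitive endoderm list lower, in WT mESCs than in each knockout line. The part of these cells in the levels of the naive factors was not tested.

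**Figure D4:**
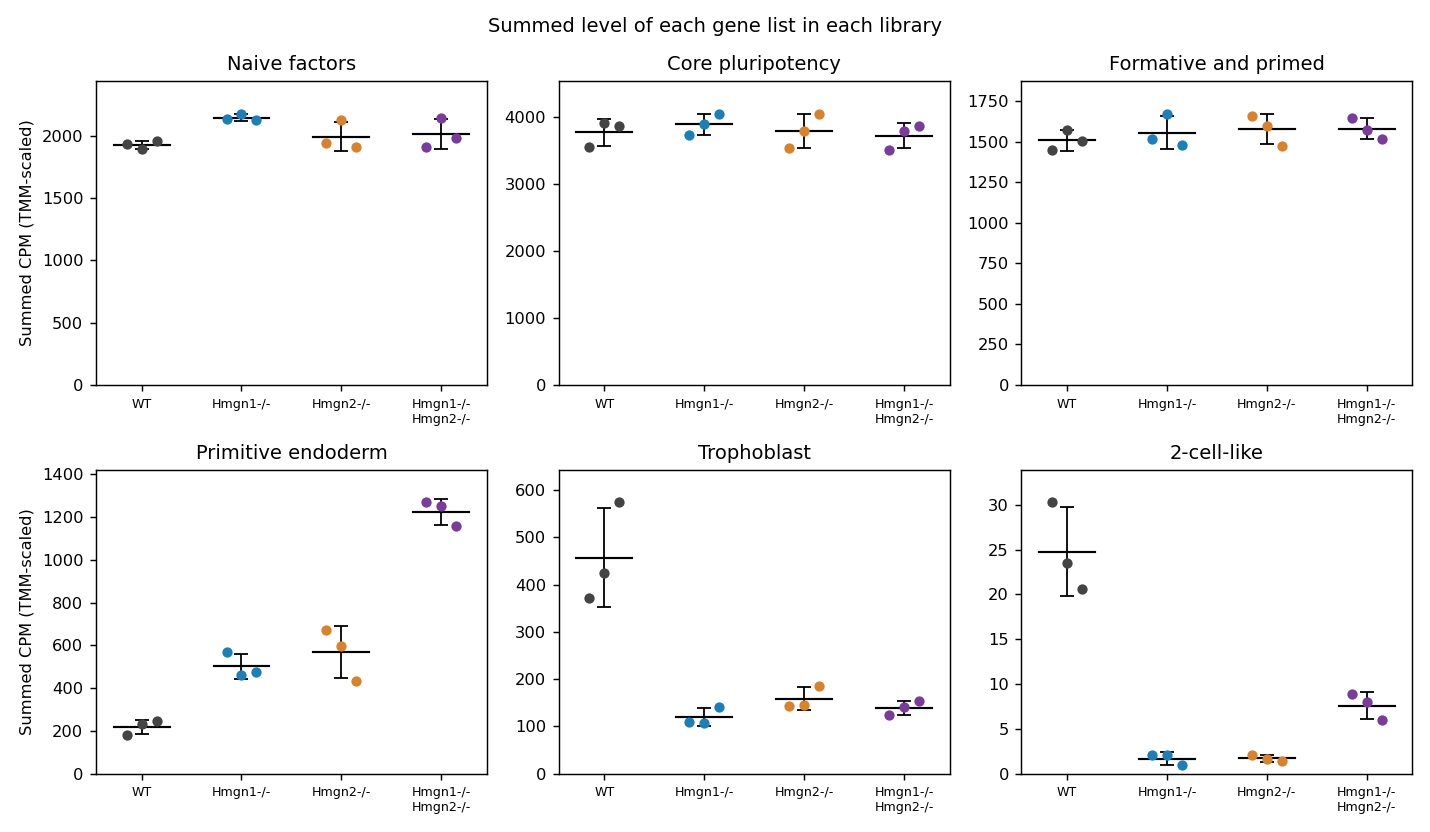
Summed CPM (TMM-scaled, vertical axes from 0) of the genes of 6 lists in every library, by genotype. Dots are the 3 libraries, horizontal lines the mean and error bars the SD. The naive factors summed to 1891 to 1955 CPM in WT libraries, 2126 to 2178 CPM in Hmgn1-/-, 1909 to 2125 CPM in Hmgn2-/- and 1912 to 2146 CPM in double knockout libraries, so that the Hmgn1-/- libraries were above WT and the other lines overlapped it.

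The knockouts were then compared with one another to ask whether loss of both proteins differs from loss of either. Between Hmgn2-/- and Hmgn1-/- mESCs no naive factor was called at any size, where 0.352% of all genes were, and 2 had an unadjusted p under 0.05 (edgeR), as had 3.202% of all genes, with 0 called by DESeq2. Between the double knockout and Hmgn2-/- mESCs, from which it was made, no factor was called by either tool. Of all genes 0.0434% were called by edgeR and 0.393% by DESeq2. With single libraries left out, edgeR called 0.00714% to 0.143%. With all libraries 2 factors had an unadjusted p under 0.05 (edgeR), as had 4.44% of all genes. With a replicate block (the replicate number as a term of the fit) Tbx3 was called there, at 0.35 (adjusted p = 0.00878), and so were 0.557% of all genes. Each double knockout library had more Tbx3 than the Hmgn2-/- library of its number, but the libraries of the lines overlapped when not paired. Without the block the adjusted p of Tbx3 there was 0.946 (edgeR). Between the double knockout and Hmgn1-/- mESCs 1 factor was called, against 1.09% of all genes, and 7 had an unadjusted p under 0.05, as had 9.53% of all genes. That count of 7 became 3 to 6 with single libraries left out and 2 with all 12 libraries in 1 fit. With a replicate block Esrrb (-0.19, adjusted p = 0.000483) and Klf4 (-0.18, adjusted p = 0.00162) were called in addition, with 2.98% of all genes called. The factor called without it was Dppa3, which was lower in the double knockout by a log2 fold change of -0.86 ± 0.11 (SE, adjusted p = 0.000168), with a 95% interval of -1.09 to -0.64. All 3 double knockout libraries, at 13.4 to 14.1 CPM, lay below all 3 Hmgn1-/- libraries, at 22.7 to 29.3 CPM. Primitive endoderm genes also differed in this comparison, with 9 of 13 tested higher in the double knockout past the threshold, which 70 of 13710 genes passed in all. So did 2-cell-like genes, of which 3 were tested and 3 were higher past the threshold. The part of either list in the lower Dppa3 was not tested. Against Hmgn2-/- mESCs the value was -0.54 ± 0.17 (SE, adjusted p = 0.673), and -0.31 (adjusted p = 0.583) without Hmgn2-/- replicate 3, which stood well above the other 2 libraries of its line. With all libraries the 95% interval was -0.92 to -0.17. For Nanog, the interval between the double knockout and Hmgn2-/- mESCs was -0.11 to 0.23, and for Klf4 -0.13 to 0.25.

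If each loss acted independently on the log2 scale, the change in the double knockout would be the sum of the changes in the single knockouts. The departure from that sum, fitted over all 12 libraries, was called for 2 of the 10 factors, against 6.32% of all genes, and 6 had an unadjusted p under 0.05, as had 25.9% of all genes. Klf4 departed by -0.87 ± 0.13 (SE, adjusted p = 0.000346), with a 95% interval of -1.14 to -0.60. Esrrb departed by -0.50 ± 0.09 (SE, adjusted p = 0.001296), with an interval of -0.69 to -0.32. Both had risen in Hmgn1-/- mESCs, and neither was higher in the double knockout than in that line, so the sum of the changes was not reached. Nanog, which fell, departed in the other direction by 0.38 ± 0.10 (SE, adjusted p = 0.0163), and Dppa3 by -0.84 ± 0.23 (SE, adjusted p = 0.022003), neither called. Without Hmgn2-/- replicate 1 the departure of Dppa3 was -0.98 (adjusted p = 0.00639), and with all genes of 1 count or more in the fit -0.85 (adjusted p = 0.00684). It was -0.61 without Hmgn2-/- replicate 3, and the adjusted p was 0.0232, 0.0574 and 0.0624 without that library, WT replicate 2 and WT replicate 3. With a replicate block Nanog (0.38, adjusted p = 0.00775) and Tbx3 (0.48, adjusted p = 0.00887) were called as well, with 10.2% of all genes called. DESeq2 called 4 departures, those of Nanog, Esrrb, Klf4 and Dppa3, against 8.29% of all genes. A change in WT alone, or a difference that the 3 edited lines share, gives departures of the sign seen for Klf4 and Esrrb, and with 1 line per genotype these and an effect of both losses cannot be told apart.

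**Figure D5:**
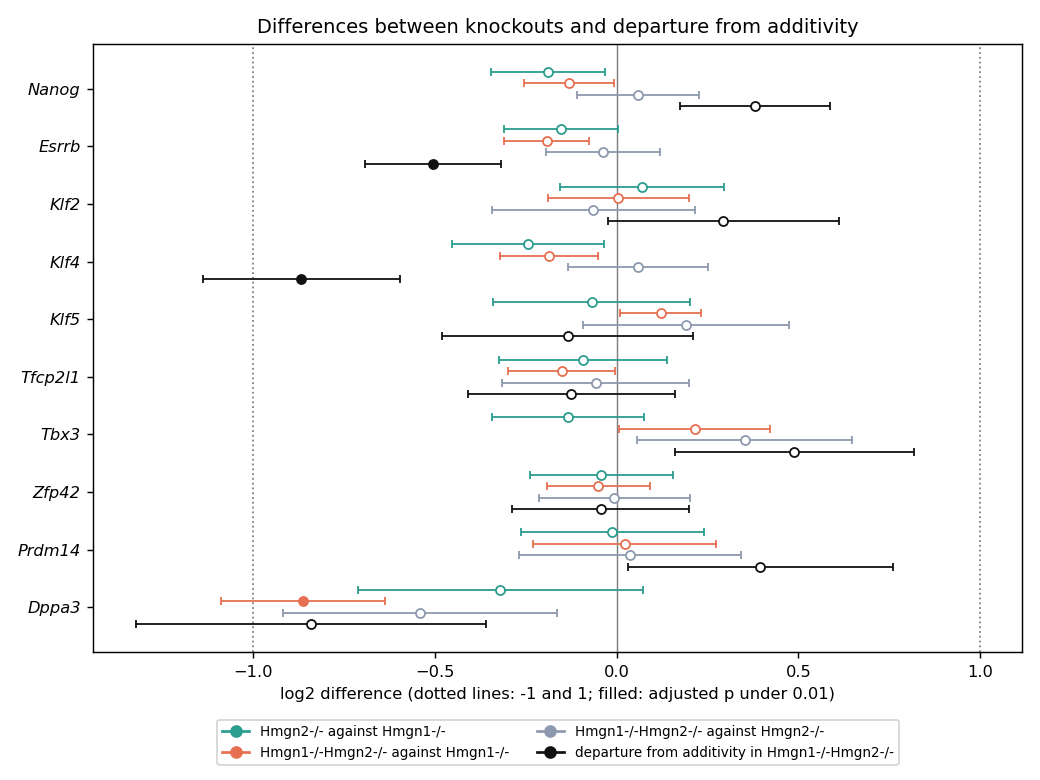
Log2 differences between knockout lines and departure from additivity in the double knockout (horizontal axis) for the 10 factors, with 95% intervals. Filled circles have an adjusted p under 0.01 and dotted lines mark -1 and 1. Filled circles are seen for Dppa3 against Hmgn1-/- and for the departures of Esrrb and Klf4.

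No factor passed the threshold against WT, so the genes whose levels ran most like a factor over the 12 libraries are named for Klf4, Nanog and Dppa3, a choice made after values were seen. Pearson's r of log2 CPM was taken with 11554 other genes averaging 50 counts or more per library, and is a description over 12 libraries that fall into 4 genotypes and share 1 contrast of WT with the rest. For Klf4 the highest values were for Spns2 (r = 0.99), Dnajc6 (r = 0.99) and Smad1 (r = 0.98), with Krt8 at the other end (r = -0.98). For Nanog the highest value was for Smpd2 (r = 0.96) and the lowest for Cilp2 (r = -0.96). For Dppa3 the highest values were for Ing4 (r = 0.94), Cisd3 (r = 0.92) and Pla2g5 (r = 0.89), with Lrp2 at the other end (r = -0.96). Krt8, the lowest for Klf4, was also the most abundant trophoblast gene in WT libraries.

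Nanog and Dppa3 lie in a cluster on chromosome 6 with Gdf3, which encodes a TGF-beta ligand of mESCs, Apobec1 and the glucose transporter gene Slc2a3. Genes of the tables within 150000 bases of this pair were examined after the values of Nanog were seen. Gdf3, next to Dppa3 on the side away from Nanog, had log2 fold changes of 0.01, -0.14 and -0.20 against WT in Hmgn1-/-, Hmgn2-/- and double knockout mESCs, and Slc2a3, the next gene beyond Nanog, had -0.02, 0.11 and 0.16. Neither was called. Rimklb at the far side of the cluster fell by 0.52, 0.56 and 0.62 in log2 (adjusted p = 3.53e-05, 0.000509 and 9.27e-06), and Mfap5 fell in Hmgn1-/- mESCs by 0.67 (adjusted p = 0.00677). Apobec1 and Foxj2 were not called, and C3ar1 was too low to test.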

How the data were processed

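Poly-A RNA was sequenced as 150 bp paired-end reads, which the authors aligned to mm10 with STAR 2.6.0. The deposited values are raw counts per gene, and the counting program, its annotation and its strand setting are not given in the sources used here. All 12 libraries were used and grouped by genotype. Each pair of genotypes was fitted across all genes on its 6 libraries with edgeR 4.0.16 in R 4.3.3 (filterByExpr, TMM scaling, quasi-likelihood test, Benjamini-Hochberg adjustment), and the departure from additivity on all 12. Tests were 2-sided and adjusted over all genes tested. On simulated data for Hmgn1-/- against WT, the fit recovered 100 of 100 genes changed by 2 in log2. It recovered 61 of 100 genes changed by 0.5 in log2, so smaller changes can go uncalled. The members and gene lists were chosen with earlier results of these data known: the 10 factors, core pluripotency, other naive, LIF, WNT, FGF and ERK, formative and primed, primitive endoderm, trophoblast, 2-cell-like, germ cell and fibroblast genes. Named are the 10 factors, Hmgn1 and Hmgn2, and of each other list the genes past the threshold against WT and the 2 most abundant in WT. Other list genes named (Gbx2, Tcl1, Tcf7l1, Axin2, Etv4, Cdx2, Tead4, Elf5, Afp, Ttr, Gm4340, Lum, Gdf3 and the rest of the core list) were chosen after their values were seen or as defining markers. Alternatives were DESeq2 1.42.0, its size factors in edgeR, all genes with at least 1 count, a replicate block, each library left out, an adjusted p under 0.05, all 12 libraries in 1 fit and the longest transcript for length. Promoter sequences are from RefSeq. Protein levels, chromatin and cell-to-cell variation were not analysed here.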

Additional observations from a re-analysis of the deposited data

Results flagged for a closer look

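In the double knockout, the departure from the sum of the single changes differed from 0 for Klf4 (-0.87 in log2) and for Esrrb (-0.50), in the fit over all 12 libraries. A change in WT alone or a difference shared by the 3 edited lines gives departures of this sign, and these cannot be told apart. Dppa3 differed between the double knockout and Hmgn1-/- mESCs (-0.86 in log2), a test between the groups themselves. Each genotype is 1 line, and genotype and line cannot be told apart in these differences. No group had 4 or more libraries, so single libraries far from their group were not tested.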

How the results depend on the processing

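No member's called change turned direction under any alternative. When single libraries were left out, the number of the 10 factors called at any size was 3 to 6 in Hmgn1-/- mESCs, 1 to 4 in Hmgn2-/- mESCs and 4 to 6 in the double knockout against WT, and 2 to 3 for the departure from additivity. The shares of all genes called in these fits moved as well, over 11.2% to 21.9%, 5.10% to 13.5%, 11.9% to 21.2% and 4.02% to 7.53% in the same order. The number past the threshold in Hmgn1-/- mESCs was 0 to 1, the 1 being Klf4 without WT replicate 1, where 973 of 14021 genes passed it. With all 12 libraries in 1 fit, 3 factors were called in Hmgn1-/- mESCs, against 15.03% of all genes. For the departure from additivity, DESeq2 called 4 factors, against 8.29% of all genes. An adjusted p under 0.05 gave 5 factors, and the share of all genes at that limit was not counted. With a replicate block, 3 factors (Esrrb, Klf4 and Dppa3) were called between the double knockout and Hmgn1-/- mESCs, 1 (Tbx3) between the double knockout and Hmgn2-/- mESCs, and 4 for the departure from additivity. Of all genes 2.98%, 0.557% and 10.2% were called in these fits. The block was tried as an alternative only, because replicate numbers do not pair libraries throughout: the correlation over 14323 genes of residuals of libraries with the same number was 0.0169 to 0.301, over 0.1 in 12 of 18 pairs, and highest for the own number in 15 of 18. Over the longest transcript, Esrrb had 92.8, Klf5 45.3 and Tbx3 12.4 RPKM in WT mESCs. Of the log2 fold changes of single factors, 14 lost and 4 gained a call when a library was left out, and 462 kept their side. With DESeq2 3 gained a call and 67 kept their side. With all genes of 1 count or more 2 gained a call, Esrrb in Hmgn2-/- mESCs and the departure of Dppa3, and 68 kept their side. With a replicate block 5 gained a call and 65 kept their side, and with RLE size factors all 70 kept it. The causes of these differences were not tested.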
